A study of Homo sapiens with 6 samples.

Results

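The nuclear genes of the mitochondrial oxidative phosphorylation system were followed in U2932 cells after silencing of the kinase ROCK2. A gene was taken as a member if its symbol began with NDUFA, NDUFB, NDUFC, NDUFS or NDUFV and a digit, with UQCR, with COX and a digit from 4 to 8, or with ATP5, or was SDHA, SDHB, SDHC, SDHD, CYC1 or CYCS. This found 92 of the 20667 gene symbols, of which 36 belong to complex I, 4 to complex II, 10 to complex III, 17 to complex IV and 16 to complex V. Counted here are UQCRHL (complex III) and ATP5L2 (complex V), which are copies of subunit genes. COX7A2L, a protein of supercomplexes, in which complexes are joined, is counted in complex IV. CYCS is cytochrome c, 2 members (ATP5S and ATP5SL) are proteins that are not subunits, and 6 are pseudogenes, read-through, antisense or divergent transcripts caught by their names. Of the 92 members, 84 reached an FPKM of 1 in 3 or more libraries and were tested.

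U2932 is an established cell line of ABC-DLBCL, the activated subtype of diffuse large B-cell lymphoma. Cells of both groups carried a pLKO.1 lentiviral vector with puromycin resistance and tGFP, expressing an shRNA against ROCK2 (group ROCK2 KD) or, as the control, a scrambled one (group Scr shRNA). Total RNA of 3 libraries per group, numbered as replicates 1, 2 and 3 in both, was sequenced from Nextera libraries. The sources do not say that replicates are separate infections or cultures, so p values measure the spread between these libraries, which may be technical. Whether the lines were clonal is not given in the sources used here. The values are FPKM, fragments mapped per unit of transcript length and of sequencing depth. Levels per library are given as deposited, and differences are log2 values of ROCK2 KD minus Scr shRNA on log2(scaled FPKM + 1), which understates changes of low genes. They were tested in limma, blocking on the replicate number, with p values adjusted by Benjamini-Hochberg over all 10526 genes tested.

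Oxidative phosphorylation makes most of the ATP of a respiring cell. Complexes I (NADH dehydrogenase) and II (succinate dehydrogenase) pass electrons to ubiquinone, complex III (cytochrome bc1) passes them on to cytochrome c, complex IV (cytochrome c oxidase) reduces oxygen, and the proton gradient so built drives complex V, the ATP synthase. Apart from complex II, each complex joins nuclear-encoded subunits with a few made from mitochondrial DNA. The mitochondrially encoded subunits were not analysed here. In lymphoma, dependence on this pathway is a known trait that varies between tumours.

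ROCK2 was at an FPKM of 2.75, 5.35 and 1.26 in replicates 1, 2 and 3 of ROCK2 KD and at 4.32, 7.21 and 5.78 in Scr shRNA. It was lower in each of the 3 pairs of the same number, while the ranges of the groups overlapped. The log2 difference was -0.81 (standard error 0.23, adjusted p = 0.785 in limma), and -0.42 without replicate 3. ROCK1, the paralogous kinase, had a log2 difference of 0.01 (standard error 0.11, adjusted p = 0.997), with a sign that turned when replicate 2 was left out (-0.04) and with length and GC adjustment (-0.04). Of 6 B cell markers, 5 had an FPKM of at least 1 in every library, and the summed FPKM of 4 T cell and of 4 myeloid markers was at most 0.758 in any library. The summed FPKM of 3 epithelial or packaging cell markers was between 2.61 and 5.14. The summed FPKM of all symbols was 217309 and 208289 in the replicate 1 libraries and between 438262 and 480612 in the other 4. The depth, read from the smallest values and expressed relative to Scr shRNA replicate 3, ran from 71.4% to 92.7% in the other 5 libraries.

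Short stretches of sequence show what some of these genes share. The 5 windows below come from upstream of the gene starts of a member of complexes I, II, IV and V and of cytochrome c, and are shown because their capitals mark GCATGCGC, letters of the site bound by NRF1, a transcription factor known for nuclear genes of the respiratory chain. They are from RefSeq on GRCh38.p14 and are written 5′ to 3′ along the strand of the gene.
NDUFS7: ttccggtttccGCATGCGCtccgagccgct
SDHB: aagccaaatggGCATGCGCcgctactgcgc
CYCS: catgctcgccaGCATGCGCgcgcaggtcct
COX6A1: ggagggcacacGCATGCGCacgaaggaaac
ATP5G2: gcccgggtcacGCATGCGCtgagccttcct
In this order the windows lie at chr19:1383823-1383852 (plus strand), chr1:17054214-17054243 (minus), chr7:25125411-25125440 (minus), chr12:120437884-120437913 (plus) and chr12:53676105-53676134 (minus). Promoters of 300 bases were found for 65 of the 84 subunits and cytochrome c. On either strand, these letters were found in 14 of the 65 (21.5%), against 6.34% of the 8213 promoters of tested genes. CCGGAAG, a core bound by ETS factors, was in 19 (29.2%) against 22.7%, and AAGATGGC, a core bound by YY1, in 11 (16.9%) against 6.39%. GGGCGG, a core bound by SP1, was in 39 (60%) against 71.5%. None of the 4 motifs contains another. These are counts of letters and say nothing about binding in U2932 cells.

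A second set of sequences is shown because it sets how far the values of a pair of subunit genes can be trusted. ATP5E, the epsilon subunit of ATP synthase (chromosome 20 of GRCh37, from 57600530 to 57607400, minus strand), has a processed pseudogene, ATP5EP2 (chromosome 13, from 28519397 to 28519552, plus strand). UQCRH, the hinge protein of complex III (chromosome 1, from 46769370 to 46782448, plus strand), has a copy in 1 piece, UQCRHL (chromosome 1, from 16133664 to 16135843, minus strand). The spliced coding bases of each gene are written above those of its copy, from GENCODE transcripts on GRCh37, with the bases that differ in capitals.
ATP5E: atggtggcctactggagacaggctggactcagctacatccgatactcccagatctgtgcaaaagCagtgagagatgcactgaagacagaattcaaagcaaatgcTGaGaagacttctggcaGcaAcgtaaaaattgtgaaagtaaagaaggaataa
ATP5EP2: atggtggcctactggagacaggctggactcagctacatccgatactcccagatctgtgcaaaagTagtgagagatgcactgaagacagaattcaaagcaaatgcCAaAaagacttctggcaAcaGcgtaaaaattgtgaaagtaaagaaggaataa
UQCRH: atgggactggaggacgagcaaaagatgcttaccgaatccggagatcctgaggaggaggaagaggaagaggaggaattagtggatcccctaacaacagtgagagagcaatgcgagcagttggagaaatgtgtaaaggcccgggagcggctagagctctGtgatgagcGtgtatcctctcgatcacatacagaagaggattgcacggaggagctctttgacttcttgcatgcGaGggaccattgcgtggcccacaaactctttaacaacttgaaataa
UQCRHL: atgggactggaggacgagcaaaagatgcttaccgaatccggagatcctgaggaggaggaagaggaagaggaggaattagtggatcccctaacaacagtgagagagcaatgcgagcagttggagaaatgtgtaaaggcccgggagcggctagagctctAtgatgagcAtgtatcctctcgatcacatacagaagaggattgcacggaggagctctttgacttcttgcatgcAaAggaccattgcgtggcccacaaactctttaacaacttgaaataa
ATP5E and its copy are identical at 150 of 156 bases (96.2%), with a longest shared run of 64 bases. UQCRH and its copy are identical at 272 of 276 bases (98.6%), with a shared run of 157 bases.

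Knockdown of ROCK2 was accompanied by small differences across the respiratory chain that did not pass the test. Of the 84 members tested, 66 (78.6%) were higher in ROCK2 KD, against 50.6% of all genes tested. Their median log2 difference was 0.08, against 0.00 for all genes, with medians of 0.13, 0.05 and 0.07 in the pairs of replicates 1, 2 and 3. The values ran from -0.31 for NDUFS7 to 0.24 for ATP5EP2. In all 3 pairs, 29 members (34.5%) were higher, against 13.8% of all genes, and 2 (2.38%) were lower, against 11.2%. No test of the list was made, and the members share their libraries, so these shares describe the 6 libraries.

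In limma with the replicate block, 0 of the 84 members had an adjusted p under 0.05, where 0% of all genes did. The lowest adjusted p of a member was 0.908, and that of any gene was 0.750. The count of members was also 0 at an unadjusted p under 0.05, against 578 genes (5.49%). With ComBat on the replicate number followed by limma, 312 genes and 0 members had an adjusted p under 0.05, and 24 members (28.6%) had an unadjusted p under 0.05, against 20.2% of all genes. That fit had no replicate block, which overstates its residual degrees of freedom, so its p values tend to be too small. The scaled FPKM of the 3 ROCK2 KD libraries and the 3 Scr shRNA libraries overlapped for every member, whereas they did not overlap for 1.98% of all genes.

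**Figure D1:**
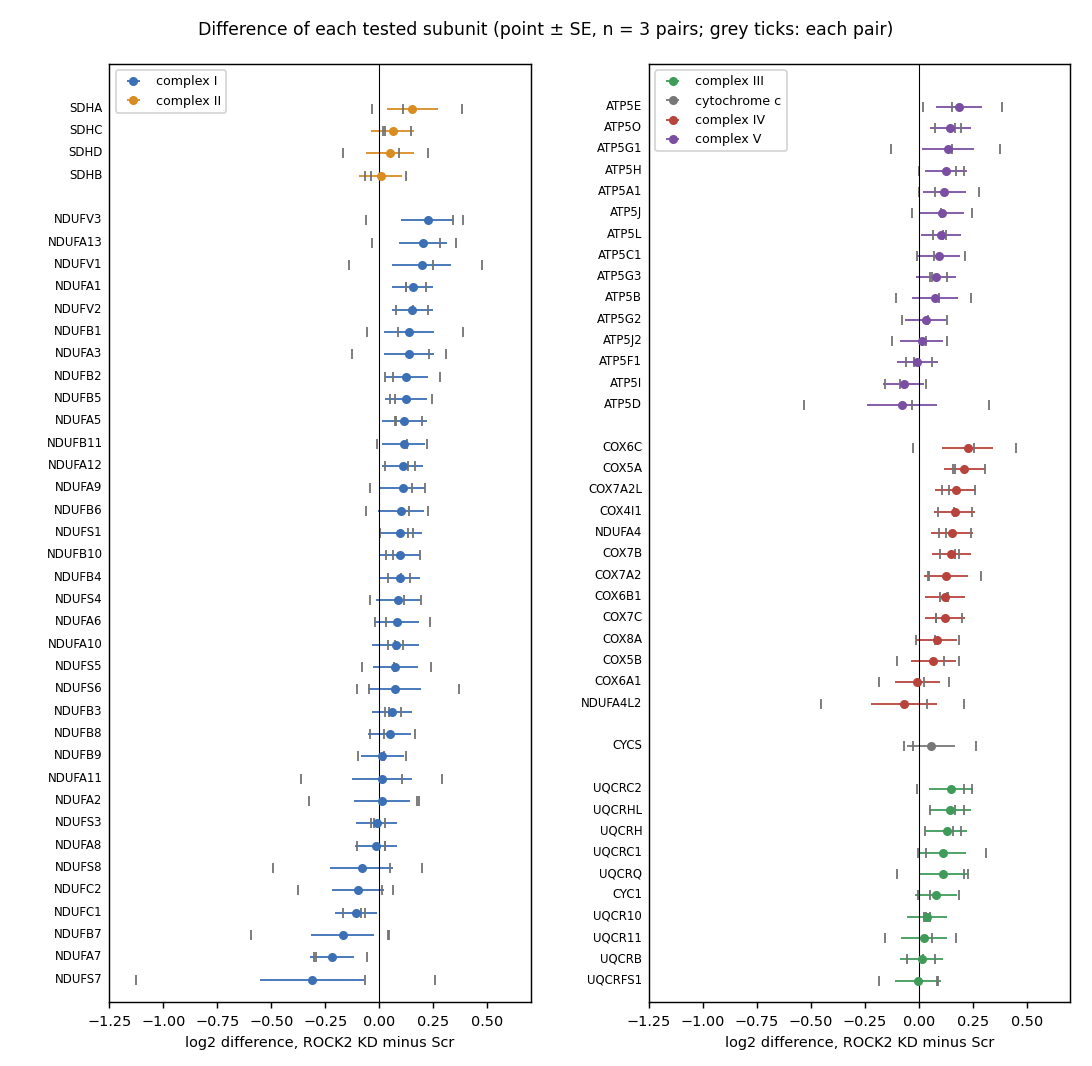
Log2 difference between ROCK2 KD and Scr shRNA (x axis, log2 of scaled FPKM + 1) for 78 of the 79 tested subunits and cytochrome c, by complex. Points with bars are the mean over 3 pairs ± standard error from limma and grey ticks the single pairs. Most points lie between 0 and 0.23, and NDUFS7 has 1 tick at -1.13.

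Complex I, which oxidises NADH and is the largest of the chain, had 27 of its 36 members higher in ROCK2 KD and a median log2 difference of 0.08. Its pair medians were 0.10, 0.01 and 0.08. Of the 7 members that form the catalytic core, 3 were higher and 4 lower (median -0.01), and of the 29 accessory members 24 were higher (median 0.09). The pair medians were 0.08, 0.03 and 0.00 for the core and 0.12, -0.01 and 0.09 for the accessory members. Whether core and accessory members differed was not tested.

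NDUFV3, a small accessory protein of the NADH-binding arm, was at an FPKM of 12.7, 21.9 and 31.0 in ROCK2 KD and 9.81, 23.6 and 22.8 in Scr shRNA. It was higher in replicates 1 and 3 and slightly lower in replicate 2, for a log2 difference of 0.22 (standard error 0.13, adjusted p = 0.953 in limma), the highest of the complex. This was 0.14 without replicate 3 and 0.36 without replicate 2. NDUFV1, which holds the flavin and first iron-sulphur centre, was at 27.0, 54.8 and 98.8 against 22.5, 62.2 and 68.9, with a log2 difference of 0.20 that was 0.06 without replicate 3 and 0.36 without replicate 2.

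NDUFS7, which carries the last iron-sulphur cluster before ubiquinone (chromosome 19 of GRCh37, from 1383526 to 1395588), was at 50.3, 40.7 and 202 in ROCK2 KD and 41.9, 92.9 and 206 in Scr shRNA. The pair differences were 0.26, -1.13 and -0.07. A single pair thus set the lowest value of the complex, -0.31 (standard error 0.24, adjusted p = 0.974 in limma), which became 0.09 without replicate 2.

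NDUFS1, the largest iron-sulphur subunit of the complex, had a log2 difference of 0.10, which was 0.062 without replicate 1 and 0.15 without replicate 3. NDUFA7 and NDUFC1, both accessory, were the members lower in all 3 pairs, and are named here with their values known. NDUFA7 was at 59.7, 172 and 166 in ROCK2 KD and at 62.0, 219 and 199 in Scr shRNA, a log2 difference of -0.22 (standard error 0.10, adjusted p = 0.914 in limma). For NDUFC1 the log2 difference was -0.11.

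Complex II, which also belongs to the citric acid cycle, had all 4 subunits above 0, with a median log2 difference of 0.06. SDHA, the flavoprotein, was at 19.1, 43.7 and 45.5 in ROCK2 KD and 14.4, 46.1 and 41.0 in Scr shRNA. Its log2 difference was 0.15 (standard error 0.12), mostly from replicate 1 (0.38), and was 0.03 without it and 0.24 without replicate 2. SDHB, the iron-sulphur subunit that binds SDHA, was at 35.9, 108 and 111 against 37.6, 102 and 111, a log2 difference of 0.01. The anchors SDHC and SDHD, named with their values known, had log2 differences of 0.06 and 0.05. Their differences in the pairs of replicates 1, 2 and 3 were 0.02, 0.02 and 0.14 for SDHC and -0.17, 0.09 and 0.22 for SDHD.

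Complex III, counting the copy UQCRHL, had 9 of 10 members above 0 and a median log2 difference of 0.09, with pair medians of 0.19, 0.06 and 0.03. UQCRC2, a core protein, was at 52.7, 136 and 111 in ROCK2 KD and 44.3, 121 and 109 in Scr shRNA. Its log2 difference of 0.15 (standard error 0.10, adjusted p = 0.958 in limma) was the highest of the complex, though it was 0.094 without replicate 1 and 0.23 without replicate 3, and its partner UQCRC1 had 0.11, which was 0.0068 without replicate 1. Of the redox subunits, CYC1, cytochrome c1, was at 0.08 (0.018 without replicate 1 and 0.12 without replicate 3) and UQCRFS1, the Rieske iron-sulphur protein, at 0.00. UQCRFS1 was lower in replicate 1 (-0.18) and higher in replicates 2 and 3 (both 0.09). Cytochrome c itself, CYCS, was at 22.9, 52.7 and 65.7 in ROCK2 KD and 23.3, 44.9 and 67.1 in Scr shRNA, with a log2 difference of 0.06 that became -0.05 without replicate 2.

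Complex IV had the highest median log2 difference of the 5 complexes, 0.12, with 11 of 13 tested members above 0 and pair medians of 0.16, 0.13 and 0.10. Whether it differed from the other complexes was not tested. In all 3 pairs, 8 of the 13 (61.5%) were higher, against the 13.8% of all genes given above: COX4I1, COX5A, COX6B1, COX7A2, COX7B, COX7C, COX7A2L and NDUFA4.

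COX5A, a nuclear subunit on the matrix side of the oxidase (chromosome 15 of GRCh37, from 75212132 to 75230424), was at 108, 352 and 421 in ROCK2 KD and 86.8, 325 and 365 in Scr shRNA. Each ROCK2 KD library was above the Scr shRNA library of its number, by 0.31, 0.16 and 0.17 on the log2 scale. The mean log2 difference was 0.21 (standard error 0.09, unadjusted p = 0.0609 and adjusted p = 0.908 in limma), and the group means, 294 ± 165 and 259 ± 150 (SD, n = 3), overlapped widely because replicate 1 was low in both.

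COX6C, a small membrane subunit, had the highest mean difference of the complex, 0.23 (standard error 0.12). It was at 74.3, 298 and 266 against 62.0, 224 and 264, so that its difference came from replicates 1 and 2 and was 0.11 without replicate 2 and 0.36 without replicate 3. COX4I1, the ubiquitous form of the subunit through which ATP inhibits the oxidase, was at 164, 465 and 471 against 146, 403 and 431, a log2 difference of 0.16 (standard error 0.09, adjusted p = 0.953 in limma). COX7B was at 102, 538 and 487 against 90.8, 487 and 442, a log2 difference of 0.15. COX7A2, COX6B1, COX7C and COX8A had log2 differences of 0.12, 0.12, 0.12 and 0.08, and COX6A1 of -0.01. COX7A2 was at 0.048 without replicate 3, COX7C at 0.075 without replicate 2 and COX8A at 0.024 without replicate 1 and 0.13 without replicate 2.

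**Figure D2:**
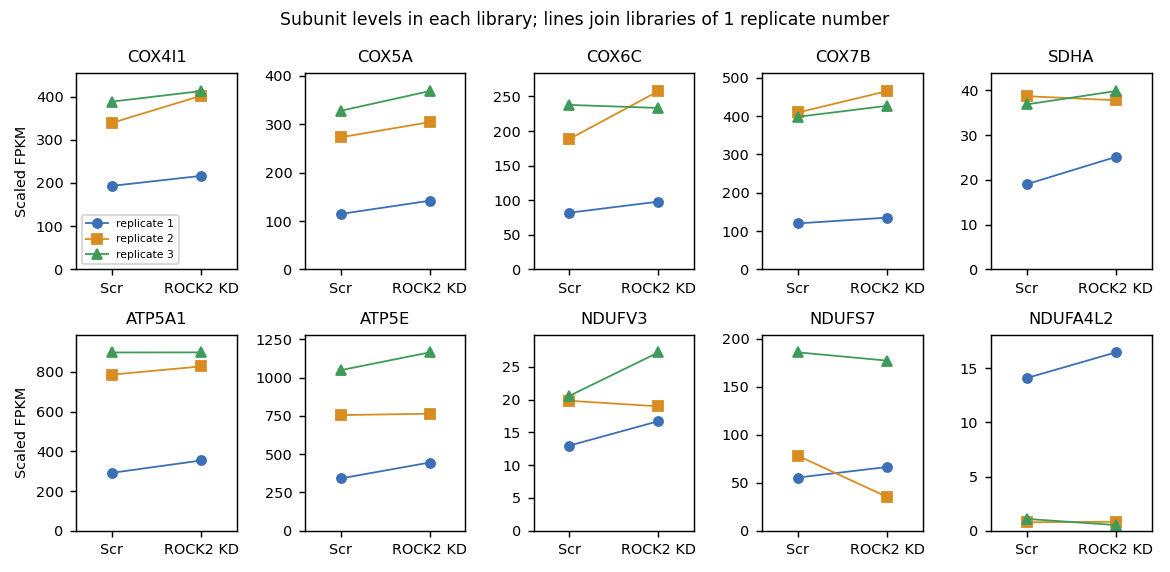
Scaled FPKM (y axis, from 0) of 10 named members in Scr shRNA and ROCK2 KD, with a line joining the libraries of 1 replicate number. COX4I1, COX5A and COX7B slope upwards in all 3 pairs, NDUFS7 slopes steeply down in replicate 2, and NDUFA4L2 is high in replicate 1 and near 1 elsewhere.

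Several subunits of complex IV have tissue isoforms, and the cells listed the ubiquitous form. COX4I2, a lung form, and COX7A1, a heart and muscle form, were listed at 0 in every library. COX6B2 and COX8C, known from testis, were listed at no more than 0.0454 and 0.0918. COX6A2 and COX7B2 were not analysed here. NDUFA4, once assigned to complex I and now to complex IV, was at 37.2, 108 and 123 in ROCK2 KD and 31.3, 101 and 113 in Scr shRNA, a log2 difference of 0.15 (standard error 0.10).

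NDUFA4L2, its hypoxia-inducible paralogue, behaved unlike the rest. It was at an FPKM of 12.5, 0.962 and 0.604 in ROCK2 KD and 10.7, 0.934 and 1.22 in Scr shRNA, high in both replicate 1 libraries and near 1 in the other 4. Its log2 difference between the groups was -0.07 (standard error 0.15), and it moved with the settings, to -0.21 with a pseudocount of 0.1, -0.12 without replicate 2 and 0.0079 with length and GC adjustment.

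Complex V had 12 of 15 tested members above 0, a median log2 difference of 0.09 and pair medians of 0.17, 0.07 and -0.01. Without replicate 1 the median was 0.03. It also held the most abundant members. ATP5A1 and ATP5B are the alpha and beta subunits of the catalytic head. ATP5A1 was at 268, 958 and 1025 in ROCK2 KD and 221, 936 and 999 in Scr shRNA, a log2 difference of 0.12 (standard error 0.10) that was 0.031 without replicate 1 and 0.18 without replicate 3. ATP5B was at 221, 675 and 710 against 207, 587 and 746, a log2 difference of 0.08 that became -0.01 without replicate 2 and 0.17 without replicate 3.

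ATP5E, the epsilon subunit shown above, was at 338, 885 and 1329 in ROCK2 KD and 258, 898 and 1166 in Scr shRNA. Its log2 difference of 0.18 (standard error 0.11, adjusted p = 0.953 in limma) was the highest of the complex, and was 0.079 without replicate 1. ATP5D, the delta subunit, was the lowest at -0.08 (standard error 0.16), from pair differences of 0.32, -0.53 and -0.03. ATP5G1, ATP5G2 and ATP5G3 encode the same mature c-ring subunit with different targeting peptides. Their log2 differences were 0.13, 0.03 and 0.08 in that order, and that of ATP5G1 was 0.0048 without replicate 1 and 0.27 without replicate 3. ATP5G2 had the highest FPKM of the 3 genes in every library, from 111 to 392, and ATP5G3 the lowest, from 37.9 to 179. ATP5J2, a membrane subunit, was among the 5 most abundant members and had a log2 difference of 0.01.

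In Scr shRNA libraries the median FPKM of the tested members was 257 for complex V, 254 for complex IV, 92.5 for complex I, 89.5 for complex III and 58.8 for complex II. FPKM are per length, but GC content and copies may still affect levels set side by side between genes, which was not tested. The order within the first pair and within the second was not kept in every library: by scaled FPKM, complex IV stood above V in Scr shRNA replicate 3 (308 against 295) and complex III above I in replicate 2 (102 against 88.8). The most abundant subunits were ATP5E at 774 ± 466, ATP5A1 at 718 ± 432, ATP5B at 514 ± 277, COX7C at 505 ± 229 and ATP5J2 at 406 ± 247 (SD, n = 3). Neighbours in this order differed by less than their SD, and the order was not kept in every library. ATP5A1 stood above ATP5E in both replicate 2 libraries (936 against 898 in Scr shRNA and 958 against 885 in ROCK2 KD), where part of the level of ATP5E is uncertain because of its copy ATP5EP2. In Scr shRNA replicate 1, COX7C (244) stood above ATP5A1 (221) and ATP5B (207). Within complex I the means ran from 5.27 for NDUFA10 to 299 for NDUFS5.

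A larger difference than that between the groups separated the replicates. The median scaled FPKM of the 84 members was 65.4 and 57.8 in the ROCK2 KD and Scr shRNA libraries of replicate 1, and between 124 and 138 in the other 4 libraries. Over all genes tested, the median was between 8.37 and 9.57 in the 6 libraries. Both replicate 1 libraries lay below the other 4 for 74 of the 84 members (88.1%), against 42.3% of all genes, and above them for 2 members (2.38%), NDUFA4L2 and NDUFA6-AS1, against 19.5%. No share over genes of a level like that of the members was taken. Outside the members, the carrier SLC25A5 was at a deposited FPKM of 106 and 104 in replicate 1 and 376 to 438 in the other 4. The B cell marker MS4A1 was at 115 and 73.6 against 390 to 511. The assembly factor COX20 was instead at 11.1 and 8.28 against 7.10 to 9.66.

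The median shift of replicate 1 against the other replicates was -0.94 on the log2 scale for members and -0.19 for all genes. By complex it was -0.94, -0.83, -0.86, -0.91 and -1.23 for complexes I to V. It was larger in size than the difference between the groups for all 84 members. The share over all genes was not taken, so this is not set apart as a trait of the members. Among genes with a median transcript under 700 bases, the shift was -0.25 over all 1843 genes and -1.07 over 48 members, and in longer transcripts -0.19 and -0.86. Members made up 2.64% and 2.49% of the summed FPKM in replicate 1 and 3.64% to 3.95% in the other libraries. The part of depth, RNA quality or culture in this shift was not tested.

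**Figure D3:**
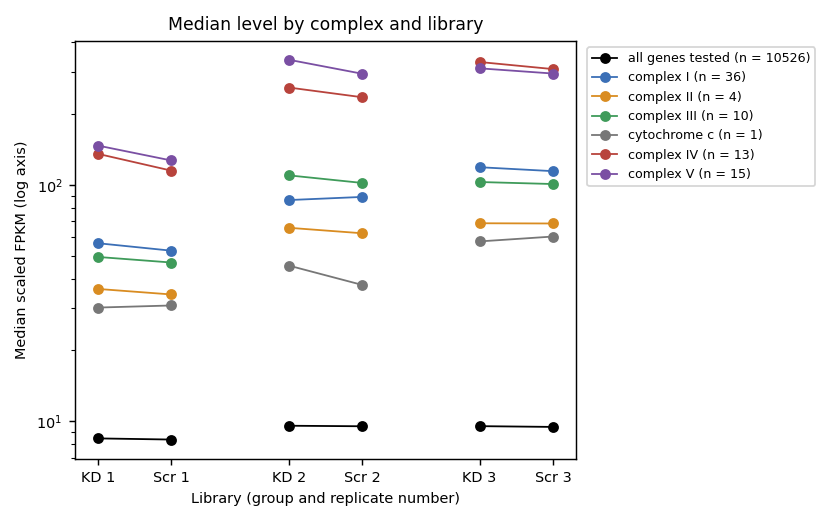
Median scaled FPKM (y axis, log scale) of each complex and of all genes tested, in the 6 libraries ordered by replicate number, with a line joining the libraries of 1 number. All complexes lie lower in replicate 1, while all genes lie between 8.37 and 9.57, and for the 5 complexes the lines within a number slope less than the step from replicate 1 to the others.

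In the replicate 2 pair, members rich in G and C stood lower in ROCK2 KD than the rest. The log2 difference in the replicate 2 pair ran against the median GC content of a gene's transcripts with Spearman's rho of -0.61 over the 84 members and -0.44 over 10230 genes. In replicates 1 and 3 it was 0.19 and -0.06 over the members. These are descriptions across genes of the same libraries. Of 9 members with a GC content of 60% or more, 7 were lower in ROCK2 KD in replicate 2, with a median of -0.36, against 1181 of 1390 genes of such content and a median of -0.24.

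The medians of those 9 were 0.25 and 0.04 in replicates 1 and 3. Among them were NDUFS7, NDUFB7, NDUFS8 and NDUFA11 of complex I and ATP5D of complex V, with replicate 2 differences of -1.13, -0.59, -0.49, -0.36 and -0.53. Fitted with the length and GC content of the transcripts adjusted for, NDUFS7 had a log2 difference of -0.21, NDUFB7 of -0.08 and ATP5D of 0.05. In that fit 63 of the 84 members were above 0 (median 0.06), against 47.7% of all genes (median -0.01), and 0 members had an adjusted p under 0.05 in limma. NDUFB7, NDUFS8 and NDUFA11 were chosen for mention with their values known.

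**Figure D4:**
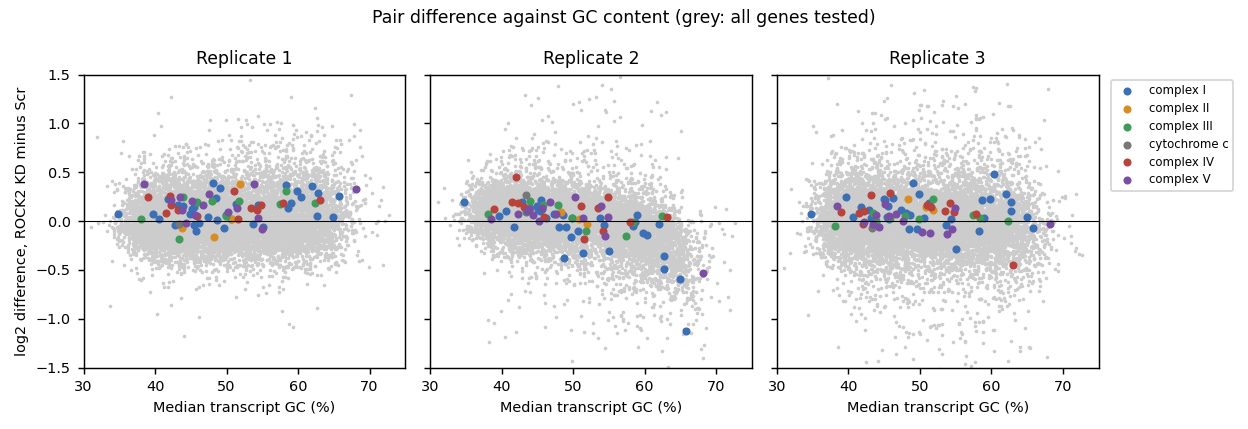
Log2 difference between ROCK2 KD and Scr shRNA in each pair (y axis) against the median GC content of a gene's transcripts (x axis, percent), with 78 members coloured by complex over all genes tested in grey. Between 6 and 39 of 10230 genes a panel lie outside the axes. The members show no clear slope in replicates 1 and 3, lying mostly above 0 in replicate 1 (median 0.13), and slope downwards in replicate 2, where NDUFS7 is lowest.

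The near-identical copies showed a second feature of replicate 2. ATP5EP2 was at an FPKM of 1.05, 210 and 8.09 in ROCK2 KD and 0.837, 200 and 5.52 in Scr shRNA. It was at 23.8% and 22.3% of the FPKM of ATP5E in the replicate 2 libraries and at no more than 0.608% in the other 4. UQCRHL was at 30.3, 192 and 65.7 against 26.1, 176 and 61.8, which is 63.8% and 63.6% of UQCRH in replicate 2 and 14.1% to 14.9% elsewhere.

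ATP5L2, a copy of the ATP synthase subunit g gene ATP5L, was at 22.4 and 19.4 in replicate 2 and at most 0.562 elsewhere, and failed the filter for that reason. UQCRBP1, a pseudogene of UQCRB, was at 28.2 in both replicate 2 libraries and at most 2.41 elsewhere. This is 78.0% and 80.1% of the FPKM of UQCRB in replicate 2 and at most 6.24% elsewhere. Of 118 processed pseudogenes listed, 58 (49.2%) were higher in both replicate 2 libraries than in the other 4 on scaled FPKM, against 9.57% of all symbols listed, and 48 and 47 reached a scaled FPKM of 1 there, against 28 to 32 in the others. How reads that match a gene and its copy were divided is not given in the sources used here. The separate values of ATP5E, UQCRH, ATP5L, UQCRB and their copies are therefore uncertain. Between the groups, ATP5EP2 had the highest log2 difference of all members tested, 0.24 (standard error 0.11, adjusted p = 0.914 in limma), and was higher in all 3 pairs, by 0.18, 0.11 and 0.44. For UQCRHL the log2 difference was 0.14.

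**Figure D5:**
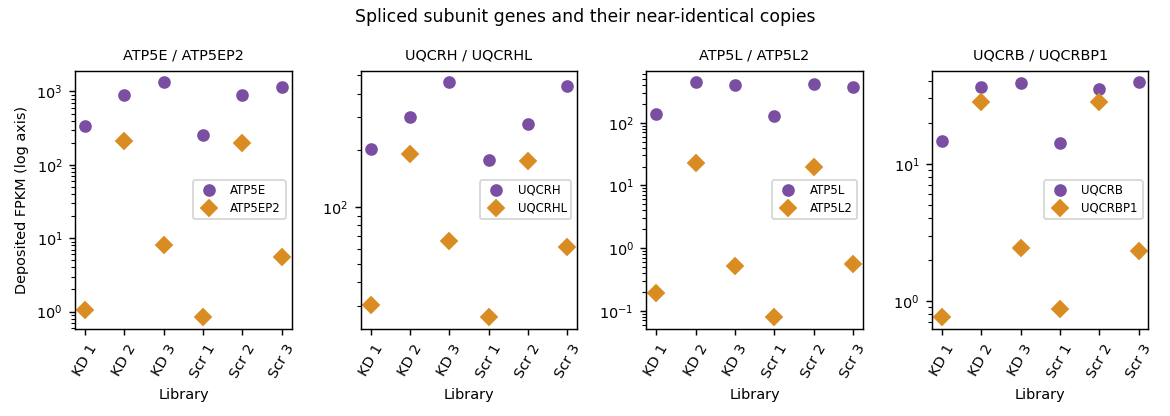
Deposited FPKM (y axis, log scale) of 4 subunit genes and their copies in the 6 libraries. The copies are highest in both replicate 2 libraries, where UQCRBP1 nears the level of UQCRB, and within each group they spread over more than the gap between the groups.

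The genes around the respiratory chain were described from lists. Of 42 assembly factors tested, which build the complexes, 19 were higher and 23 lower in ROCK2 KD (median -0.02), and 0 had an adjusted p under 0.05 in limma. Their median ranged from -0.037 to -0.0054 with a replicate left out. SCO2, which delivers copper to complex IV, had the largest difference, -0.38 (standard error 0.19), mostly from replicate 2 (-0.96), and -0.091 without it. Of 18 genes of the citric acid cycle and pyruvate dehydrogenase, 14 were higher (median 0.03) and 0 passed. IDH2, the mitochondrial NADP-linked isocitrate dehydrogenase, was at 41.8, 30.6 and 80.1 in ROCK2 KD and 28.5, 39.1 and 37.0 in Scr shRNA. Its log2 difference of 0.43 (standard error 0.23) came from replicates 1 and 3, and was 0.12 without replicate 3 and 0.79 without replicate 2.

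Of 16 carriers and channels of the inner and outer membrane, 12 were higher (median 0.10, and 0.059 without replicate 1) and 0 passed. MPC1, a subunit of the mitochondrial pyruvate carrier, was at 14.6, 22.0 and 21.6 in ROCK2 KD and 11.8, 17.2 and 14.0 in Scr shRNA. It was higher in each pair, by 0.28, 0.37 and 0.55, for a log2 difference of 0.40 (standard error 0.11, unadjusted p = 0.00733 and adjusted p = 0.750 in limma). With ComBat followed by limma, where p values tend to be too small as said above, its adjusted p was 0.0253. Over its other alternatives the adjusted p was 0.361 or more.

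Regulators of mitochondrial biogenesis had 7 of 20 higher (median -0.03), and import genes 10 of 22 (median -0.05), with 0 passing in either list. POLRMT, the mitochondrial RNA polymerase, had a log2 difference of -0.18, which was -0.047 without replicate 3 and -0.29 without replicate 1, and TOMM20, an import receptor of the outer membrane, of -0.36 (standard error 0.18), which was -0.09 without replicate 3 and -0.58 without replicate 2. Without replicate 3 the medians of both lists lay above 0, at 0.00 and 0.02.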

How the data were processed

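The authors used STAR on hg19 for alignment and deposited Cufflinks FPKM, 1 table per library. FPKM keep no read counts, so no counting interval is given, and how reads shared by copies were assigned is not given in the sources used here. Scaling used the trimmed mean of each library's log ratios, with 0.3 of the ratios and 0.05 of the levels trimmed. Genes that reached an FPKM of 1 in 3 or more libraries were kept. The values log2(scaled FPKM + 1) were fitted in limma 3.58.1 (R 4.3.3) with condition and replicate block and a trend of variance on mean, and two-sided p values were adjusted by Benjamini-Hochberg, with a threshold of 0.05. In the study's own test a batch effect between replicates was removed first. The replicate numbers come from the labels, and libraries that share a number deviated from their groups together (correlations over genes of 0.853, 0.785 and 0.740, against -0.65 to 0.06 between numbers). Deviations from the mean of 3 libraries sum to 0 in each group. This pushes the correlations between numbers below 0, so their range is partly set in advance. The script was tested on simulated data. Gene positions, median transcript length and GC come from GENCODE 44 lifted to GRCh37, which matched 97.2% of the genes tested and all 92 members, by current symbol or synonym. Promoters are RefSeq, of protein-coding genes. Depth was read from values between 0.0005 and 0.05 FPKM as the most frequent ratio between libraries.

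The members and all lists were chosen with earlier results of these data known. Named genes were the highest and lowest of each complex, members with 1 sign in all 3 pairs and a difference of at least 0.3 in size (there were 0), the 5 highest in FPKM, core subunits, isoform pairs, ROCK2 and ROCK1, and the largest of each other list. Any other gene was named with its values known. The values of 1 core subunit are not reported here. Python 3.11.15, pandas 2.3.3, scipy 1.17.1 and matplotlib 3.10.9 were used for tables and plots. Alternatives covered the block, ComBat, scaling, filters, a pseudocount of 0.1, the trend, length with GC, and each replicate left out.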

Additional observations from a re-analysis of the deposited data

How the results depend on the processing

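The precision rests on 3 libraries a group, member differences ran from -0.31 to 0.24 with a median standard error of 0.10, and FPKM hide the depth behind each value. A count of 0 members with an adjusted p under 0.05 thus does not show that differences of this size are absent. Under every alternative run, 0 members had an adjusted p under 0.05 in limma, and the median of the members stayed above 0, from 0.06 to 0.10. Without the replicate block the fold changes and the count of 0 genes were the same, the median of the members was 0.08, and 27 genes had an unadjusted p under 0.05 in place of 578, so that the block changed no other call. ComBat followed by limma, without the block and with p values that tend to be too small, gave 312 genes, 178 of them higher. Leaving out replicate 1 gave 15, so that the count ranged from 0 to 15 over the replicates left out. The share of members lower in ROCK2 KD was 21.4%, and 16.9% to 26.5% with a replicate left out. The medians then ranged from 0.05 to 0.09 for complex I, 0.03 to 0.06 for complex II, 0.04 to 0.11 for complex III, 0.13 to 0.14 for complex IV and 0.03 to 0.12 for complex V, lowest without replicate 1 for complexes I, III and V. For the citric acid cycle list the range was 0.016 to 0.076, the last without replicate 3. ROCK2 ranged from -1.03 to -0.42.

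Signs turned for 10 named genes when a replicate was left out: NDUFS7 ranged from -0.605 to 0.090, SDHB from -0.057 to 0.036, UQCRFS1 from -0.052 to 0.081, CYCS from -0.052 to 0.123, ATP5D from -0.288 to 0.142, ATP5B from -0.012 to 0.171, ATP5J2 from -0.052 to 0.086, COX6A1 from -0.076 to 0.079, ATP5G2 from -0.014 to 0.079 and ROCK1 from -0.045 to 0.054. With length and GC adjusted for, SDHB was at -0.032, NDUFA4L2 at 0.0079, ATP5D at 0.046, ATP5J2 at -0.0091 and ROCK1 at -0.041. UQCRFS1 was at 0.0030 with ComBat. The cause was not tested. Genes named with their values known, such as SDHD and NDUFB7, were not part of the count of 10. NDUFA4L2 did not pass the filter without replicate 1 or without replicate 3.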

Other observations

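ATP5S and ATP5SL, named for ATP synthase but not subunits of it, and NDUFA6-AS1 are described with their values known. The first 2 had log2 differences of 0.06 and -0.15 between ROCK2 KD and Scr shRNA. The differences in the pairs of replicates 1, 2 and 3 were 0.08, -0.10 and 0.21 for ATP5S and -0.29, -0.21 and 0.06 for ATP5SL. NDUFA6-AS1, which the annotation places next to the start of the complex I gene NDUFA6, on the other strand and without overlap, was at an FPKM of 2.85, 2.02 and 2.41 in ROCK2 KD and 3.02, 2.79 and 1.94 in Scr shRNA. Other genes of mitochondrial lists with an unadjusted p under 0.05 in limma, named with their values known, were SUCLG2, a subunit of succinyl-CoA ligase (0.34), SLC25A13, an aspartate-glutamate carrier (0.32), and ECSIT, a complex I assembly factor (-0.32). Their adjusted p values lay between 0.820 and 0.901. With MPC1, these were 1 of 42 assembly factors, 1 of 18 citric acid cycle genes and 2 of 16 carriers, against 5.49% of all genes. Regulators and import genes had 0 of 20 and 0 of 22. Each of the 3 genes had 1 sign in all 3 pairs. The pair differences were 0.47, 0.30 and 0.25 for SUCLG2 and 0.07, 0.55 and 0.34 for SLC25A13. For ECSIT they were -0.54, -0.26 and -0.16.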
